A study of Mus musculus with 4 samples.

Results

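The genes described here are 10 negative feedback regulators of the ERK pathway: the dual-specificity phosphatases Dusp4, Dusp5, Dusp6 and Dusp7, the Sprouty genes Spry1, Spry2 and Spry4, and the SPRED genes Spred1, Spred2 and Spred3. They were chosen by symbol, and all 10 were found among the 22186 genes of the expression table. Both this choice and the lists of other genes below were made with earlier results of these data known. Expression was measured by RNA sequencing in MC38, a mouse colon carcinoma line, which carried a stably transfected construct for tetracycline-inducible (TetOn) expression of the secreted chemokine CXCL14. The DOX group was 2 samples given doxycycline, the antibiotic that switches the construct on, at 1 µg/mL. The control group was 2 samples of the same TetOn-CXCL14 line that received the solvent, PBS, in the same volume, and both groups were harvested at 72 h by the treatment protocol. The series text instead describes the control cells as collected before induction, so the protocols do not settle whether control and DOX cells spent the same time in culture. No library from cells without the construct, with or without doxycycline, was analysed here, so effects of doxycycline itself and of CXCL14 cannot be told apart. The sources used here do not say whether the line was 1 clone, nor from which species the transgene came. The samples of a group are called biological replicates in the series text, with no word on separate cultures, so p-values measure the spread between these samples.

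ERK is the last kinase of a cascade that runs from growth factor receptors through RAS, RAF and MEK, and many of the genes that it switches on encode its own brakes. MAP kinase phosphatases such as DUSP6 remove the activating phosphates from ERK. Sprouty and SPRED proteins act further upstream, between the receptor and RAF. In tumour cells with an active RAS-ERK pathway, transcripts of these brakes are commonly high and drop when the pathway is inhibited. Only RNA was measured in the data used here, so ERK activity itself was not tested.

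Levels are in TPM, a transcript level scaled for transcript length and library total, so that genes can be compared with each other. Changes are log2 fold changes of TPM + 1, DOX minus control, fitted with limma, and p-values were adjusted with the Benjamini-Hochberg method over the 11359 genes whose mean reached 1 TPM. The label was checked first. Cxcl14 stood at 385 and 391 TPM in the DOX libraries, against 27.3 and 29.2 TPM in the control libraries (log2 fold change 3.74, SE 0.06, limma adjusted p = 1.1e-09). The read depth of the libraries is unknown, because the tables hold no counts. Markers of colon epithelium were nearly absent from these cells: 0 of 12 reached a mean of 1 TPM, their summed level was 0.145 and 0.517 TPM in DOX libraries and 0.571 and 0.836 TPM in control libraries, and Cdh1, Krt19, Cdx1 and Cdx2 were listed at 0 in all 4. Leukocyte and macrophage markers summed to 2.81 and 4.05 TPM in DOX libraries and 4.28 and 3.47 TPM in control libraries, and endothelial markers to under 1 TPM in each. Of 8 fibroblast markers, 4 had a mean below 1 TPM, among them Lum and Thy1, while Col3a1 and Pdgfra made up most of a sum of 424 and 359 TPM in DOX libraries and 978 and 946 TPM in control libraries. Of the 4 fibroblast markers tested, 3 fell (75%), Col3a1, Pdgfra and Pdgfrb, beside 35.4% of all genes tested. Col1a1 did not pass (log2 fold change 0.15, limma adjusted p = 0.52). Whether these marker levels bear on the feedback genes was not tested.

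Promoter sequences, the 250 bases before and 50 after the transcription start, were taken from RefSeq on build GRCm38.p6, where 8 of the 10 genes matched by symbol; Dusp4 and Spry4 did not. Motifs bound by factors that ERK signalling reaches were searched on both strands. They were the ETS site CCGGAA (longer than the GGAA core), the AP-1 site TGANTCA and the cyclic AMP response element TGACGTCA. The serum response element known as the CArG box was added after the sequences were seen. The 3 stretches below are from Dusp6, Dusp5 and Spry2. Dusp6 is the gene with the largest change, the Dusp5 promoter held 2 adjoining CArG boxes, and the Spry2 stretch holds the ETS site. Capitals mark the matches to these motifs, and the Dusp6 promoter held none. The shorter GGAA was not searched, and all 3 stretches hold it.
Dusp6, chr10:99262981-99263230, plus strand: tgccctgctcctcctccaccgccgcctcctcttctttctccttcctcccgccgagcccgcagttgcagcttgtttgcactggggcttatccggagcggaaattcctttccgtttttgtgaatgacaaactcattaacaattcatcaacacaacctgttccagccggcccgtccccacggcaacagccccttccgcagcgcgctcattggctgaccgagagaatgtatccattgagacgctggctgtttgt
Dusp5, chr19:53528895-53529144, plus strand: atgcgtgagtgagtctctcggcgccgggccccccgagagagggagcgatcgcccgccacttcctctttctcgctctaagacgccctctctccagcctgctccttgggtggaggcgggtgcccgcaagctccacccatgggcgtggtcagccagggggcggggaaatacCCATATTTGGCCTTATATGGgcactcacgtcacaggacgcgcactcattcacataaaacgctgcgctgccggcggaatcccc
Spry2, chr14:105896771-105896796, minus strand: gtcatctatcCCGGAAtccgggaggg
The Dusp6 and Dusp5 stretches end at the base before the start, and the Spry2 stretch covers bases 24 to 49 after it. The CArG box was found in 1 of 8 member promoters, against 1.63% of the 32851 promoters in the table. The ETS site CCGGAA was likewise found in 1 of 8, against 14.9% of all promoters. The AP-1 site and the cyclic AMP response element were found in 0 of 8, against 7.81% and 1.79%. A match is a description of the letters in this window and not evidence of a bound site.

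All 10 feedback genes fell in the DOX cultures, and in each of them both DOX libraries lay below both control libraries. The size of the fall differed widely between genes, with Dusp6 far below the rest. Of all 11359 genes tested, 64.4% passed the threshold of adjusted p under 0.05 in either direction and 35.4% passed as lower in DOX, so a fall of this kind was common in the comparison. Groups that did not overlap were seen with DOX lower in 45% and with DOX higher in 37.7% of tested genes. A log2 fold change of -1 or below that passed the threshold was found for Dusp6 and Spred3 among the 10, and for 7.76% of tested genes. With a pseudocount of 0.1 in place of 1, Dusp4 (-1.03) and Spry2 (-1.01) also reached it. The median log2 fold change was -0.78 over the 10 genes and -0.04 over all genes tested. No member was under 1 TPM in any library, so none entered the test only through its control level. In RNA from whole cultures, a change in the share of cells that express a gene and a change in RNA per cell cannot be told apart.

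**Figure D1:**
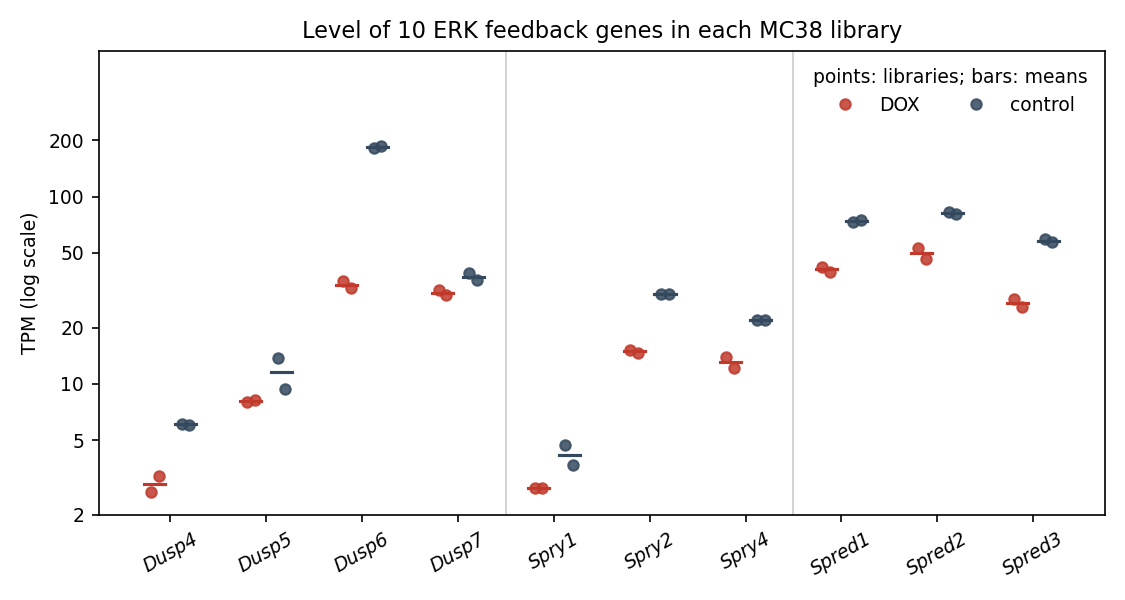
Level of each of the 10 feedback genes in TPM on a log axis, with DOX libraries in red to the left of control libraries in dark blue; points are the 2 libraries of a group and bars their means. The DOX points lie below the control points for every gene, with the widest gap for Dusp6, at 33.8 TPM in DOX and 185 TPM in control on average.

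DUSP6 is the cytoplasmic phosphatase that acts on ERK with high selectivity, and its transcript is widely used as a readout of ERK activity. Dusp6 stood at 35.3 and 32.3 TPM in the DOX libraries, against 183 and 187 TPM in the control libraries. The groups were far apart and the libraries within each were close. The mean was 33.8 ± 2.12 TPM in DOX and 185 ± 2.81 TPM in control (SD, n = 2 libraries each), 81.7% lower in DOX. Its log2 fold change, -2.42 (SE 0.07), had a limma adjusted p of 1.3e-08, and 0.81% of all tested genes had a lower value. Dusp6 had the highest level of the 10 genes in both control libraries and the third highest in both DOX libraries, after Spred2 and Spred1.

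DUSP7 is the closest relative of DUSP6 and is also a cytoplasmic ERK phosphatase, but its transcript changed little. Dusp7 stood at 31.6 and 29.8 TPM in the DOX libraries, against 38.9 and 35.9 TPM in the control libraries. This was the smallest change of the 10, 17.9% lower on average, with a log2 fold change of -0.28 and SE 0.08 (limma adjusted p = 0.011). It was no longer called without DOX replicate 2 (adjusted p = 0.074), without control replicate 1 (0.067) or with quantile normalization (0.052). Within a library, where scaling cancels, the ratio of Dusp6 to Dusp7 was 1.12 and 1.08 in DOX, against 4.70 and 5.20 in control. The paralogs stood at nearly equal levels in both DOX libraries, while Dusp6 was well above Dusp7 in both control libraries. With 2 libraries a group the smallest p of a two-sided exact permutation test is 0.33, so no p is given for such ratios.

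DUSP4 and DUSP5 are nuclear phosphatases whose genes are switched on by growth factor signals, and DUSP5 binds and holds ERK in the nucleus. Dusp4 stood at 2.65 and 3.22 TPM in the DOX libraries, against 6.10 and 6.06 TPM in the control libraries (log2 fold change -0.85, SE 0.13, limma adjusted p = 3.7e-04). Its level was 51.8% lower in DOX, and the control libraries were nearly identical. With quantile normalization its log2 fold change was -0.54 (adjusted p = 0.0070). Dusp5 stood at 8.04 and 8.17 TPM in the DOX libraries, against 13.8 and 9.43 TPM in the control libraries (log2 fold change -0.45, SE 0.15, limma adjusted p = 0.028). The control libraries of Dusp5 were uneven, and its fall rests on control replicate 1: without that library the log2 fold change was -0.20 (adjusted p = 0.19), and without control replicate 2 it was -0.70 (adjusted p = 0.0034). GENCODE M21 places an antisense gene on the opposite strand across exons of Dusp5, and no source used here states whether reads were assigned by strand. The Dusp5 value may thus include reads of both genes.

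Summed over Dusp4 to Dusp7, the level was 77.6 and 73.5 TPM in DOX libraries, against 241 and 238 TPM in control libraries. Dusp6 made up 45.6% and 44.0% of that sum in DOX, against 75.7% and 78.4% in control. Dusp6 thus accounted for most of the difference in this sum. The other 9 feedback genes together stood at 198 and 183 TPM in DOX, against 331 and 320 TPM in control, 41.5% lower on average.

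Sprouty proteins are induced by growth factors and hold back signalling from receptor tyrosine kinases to RAS and RAF. Spry2 stood at 15.2 and 14.6 TPM in the DOX libraries, against 30.13 and 30.04 TPM in the control libraries, 50.4% lower on average. At a log2 fold change of -0.97 (SE 0.08, limma adjusted p = 6.7e-06), its fall was the largest among the 3 Sprouty genes. Spry4, another member of this family, stood at 13.9 and 12.2 TPM in the DOX libraries, against 22.0 and 22.0 TPM in the control libraries (log2 fold change -0.71, SE 0.09, limma adjusted p = 1.2e-04). Libraries agreed closely within each group for both genes.

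Spry1, which limits receptor signalling in kidney development, was the lowest of the 10 genes in control and had a smaller and less secure change. It stood at 2.79 and 2.79 TPM in the DOX libraries, against 4.70 and 3.69 TPM in the control libraries (log2 fold change -0.45, SE 0.14, limma adjusted p = 0.022). The groups did not overlap, but the call was lost without DOX replicate 1 (adjusted p = 0.055), DOX replicate 2 (0.055) or control replicate 1 (0.12), and with quantile normalization, where the log2 fold change was -0.13 (0.46). A gene on the opposite strand overlaps exons of Spry1 in GENCODE M21, which carries the same limit as for Dusp5. The ratio of Spry2 to Spry4 was 1.10 and 1.20 in DOX libraries, against 1.37 and 1.37 in control libraries, so the pair kept their order.

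SPRED proteins combine an EVH1 domain with a Sprouty-like tail, and SPRED1 recruits neurofibromin, the product of Nf1, to the membrane, where it switches RAS off. Spred1 stood at 42.3 and 39.6 TPM in the DOX libraries, against 72.9 and 75.4 TPM in the control libraries (log2 fold change -0.84, SE 0.07, limma adjusted p = 5.8e-06). Spred2, its close relative, stood at 53.2 and 46.3 TPM in the DOX libraries, against 82.4 and 80.7 TPM in the control libraries (log2 fold change -0.70, SE 0.08, limma adjusted p = 4.4e-05). Both fell by a similar share, 44.8% and 38.9% on average. Spred3, the family member that lacks a working KIT-binding domain, stood at 28.4 and 25.8 TPM in the DOX libraries, against 59.6 and 56.9 TPM in the control libraries. Its fall, a log2 fold change of -1.08 (SE 0.08, limma adjusted p = 2.6e-06), was second in size to that of Dusp6 among the 10.

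The ratio of Spred3 to Spred2 within a library was 0.533 and 0.557 in DOX, against 0.724 and 0.705 in control. Exons of Spred3 overlap those of Ggn on the opposite strand in GENCODE M21. Ggn, a germ cell gene, stood at 1.40 and 1.51 TPM in the DOX libraries, against 2.84 and 3.55 TPM in the control libraries, so it also fell (log2 fold change -0.77, limma adjusted p = 0.0020). Reads of Spred3 and Ggn in the shared stretch cannot be told apart without strand, so either value may include reads of the other gene. Ggn lay far below Spred3 in every library, but that level does not show how many shared reads either value holds. The 3 SPRED genes together stood at 124 and 112 TPM in DOX, against 215 and 213 TPM in control. The 3 Sprouty genes summed to 31.9 and 29.6 TPM in DOX, against 56.8 and 55.7 TPM in control. The summed level was thus lower by nearly the same share in both families, 44.9% for SPRED and 45.3% for Sprouty.

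**Figure D2:**
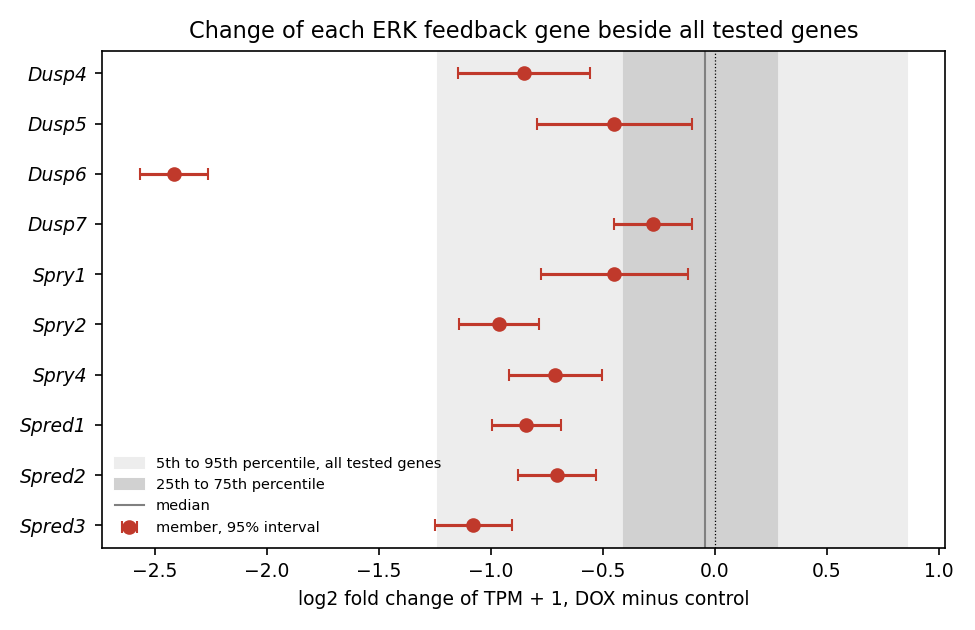
Log2 fold change of TPM + 1, DOX minus control, for each of the 10 feedback genes with its 95% interval from limma; grey bands give the central ranges of all 11359 genes tested and the grey line their median of -0.04. Dusp6 at -2.42 lies left of the 5th percentile of all genes at -1.24, and Spred3 at -1.08 and the others lie right of it.

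By level, the order in control libraries ran from Dusp6 through Spred2, Spred1, Spred3, Dusp7, Spry2, Spry4, Dusp5 and Dusp4 to Spry1, and no neighbours in that order overlapped. In DOX libraries the order was Spred2, Spred1, Dusp6, Dusp7, Spred3, Spry2, Spry4, Dusp5, Dusp4 and Spry1. There only Dusp4 and Spry1, at 2.93 ± 0.403 and 2.79 ± 0.00481 TPM (SD, n = 2), overlapped. Dusp6 and Spred3 were the genes that lost places.

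Among the genes whose profile over the 4 libraries was most like that of Dusp6, by Euclidean distance between centred log2 values, were Selenop (distance 0.076) and Tbc1d4 (0.087). Selenop, which encodes a secreted selenium carrier, stood at 2.95 and 2.77 TPM in the DOX libraries and 18.9 and 18.7 TPM in the control libraries. For Spry2 they were Socs5 (0.022), Rap2a (0.025) and the chemokine gene Cxcl10 (0.030). With 4 libraries in 2 groups, likeness mostly reflects a similar fold change, and 48 genes lay within 0.25 of Dusp6 and 728 within 0.25 of Spry2.

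Of the 6 other genes of the MAP kinase phosphatase family, 5 were tested, of which 2 rose and 3 fell (median log2 fold change -0.22), where 29% of all genes tested rose and 35.4% fell. Dusp1, an early-response nuclear phosphatase of broad range, fell to 33.3 and 26.9 TPM in the DOX libraries, against 73.7 and 78.1 TPM in the control libraries (log2 fold change -1.31, SE 0.10, limma adjusted p = 3.7e-06). Dusp8, which prefers JNK and p38, rose to 19.3 and 21.2 TPM in the DOX libraries, against 8.32 and 7.54 TPM in the control libraries (log2 fold change 1.25, SE 0.10, limma adjusted p = 5.5e-06). Dusp9, a cytoplasmic phosphatase of the same subgroup as Dusp6 and Dusp7, stood at 121 and 113 TPM in the DOX libraries, against 144 and 130 TPM in the control libraries. Its log2 fold change was -0.22 (limma adjusted p = 0.020), a call lost in 5 of 14 alternative settings, among them those without DOX replicate 2 (adjusted p = 0.14) and without control replicate 1 (0.11).

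Dusp16, another JNK and p38 phosphatase, rose by a log2 fold change of 0.27 (limma adjusted p = 0.012), a call lost without DOX replicate 2 (adjusted p = 0.11) or control replicate 1 (0.061). Dusp10 was 0.22 lower on the same scale, with a log2 fold change of -0.22 (limma adjusted p = 0.046), and passed in only 5 of 14 alternatives, with no call in the 4 that each leave out 1 library (adjusted p from 0.052 to 0.27). Dusp2 was below the tested level. Summed over the 10 typical MAP kinase phosphatases, the level was 306 and 294 TPM in DOX libraries, against 520 and 509 TPM in control libraries. The share of Dusp6 in that sum was 11.56% and 11.02% in DOX, against 35.1% and 36.6% in control. Dusp9 held 39.7% and 38.5% in DOX, against 27.7% and 25.5% in control, and so replaced Dusp6 as the most abundant of them.

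**Figure D3:**
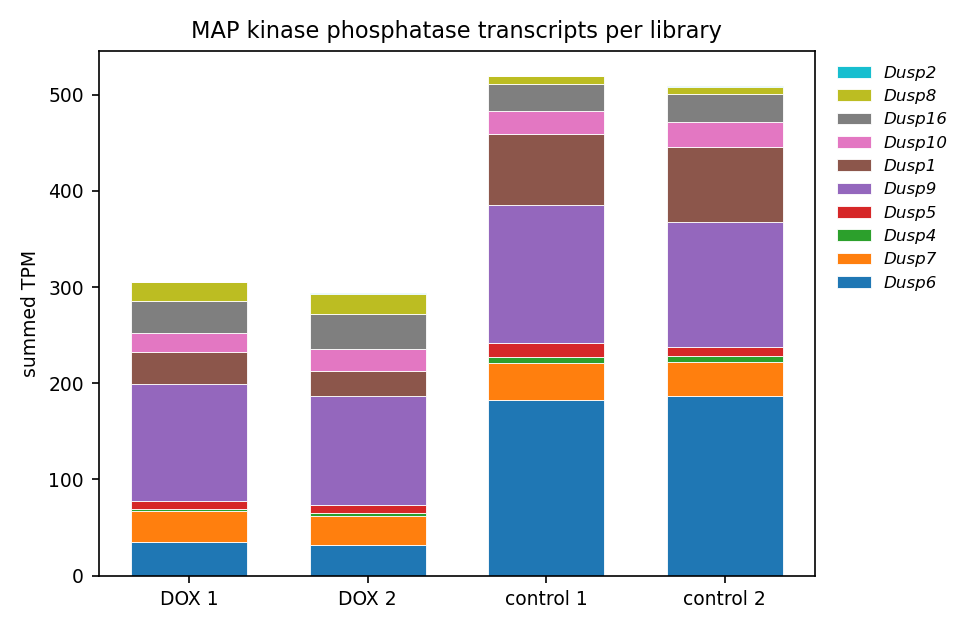
Stacked TPM of the 10 typical MAP kinase phosphatases in each library, DOX libraries left and control libraries right, with 1 colour for each gene. The stacks reach 306 and 294 TPM in DOX and 520 and 509 TPM in control, and the Dusp6 block at the base shows the largest difference.

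Among 15 atypical and other dual-specificity phosphatase genes outside the MAP kinase phosphatase family, 13 were tested. Of these 4 rose (30.8%) and 3 fell (23.1%), beside 29% and 35.4% of all genes tested (median log2 fold change 0.22). The slingshot phosphatases Ssh3 and Ssh1, which act on cofilin, and Dusp14 fell (log2 fold change -0.90, -0.84 and -0.75). Dusp3 rose to 53.4 and 55.0 TPM in the DOX libraries, against 35.9 and 34.8 TPM in the control libraries (log2 fold change 0.60, limma adjusted p = 5.0e-05).

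Of 25 genes of the RAS-RAF-MEK-ERK cascade, on which these brakes act, 7 rose (28%), 8 fell (32%) and 10 did not pass (median log2 fold change 0.02). These shares were close to the 29% and 35.4% of all genes tested. The list also holds Mapk7 and Map2k5, which belong to a parallel MAP kinase cascade. Mapk7 is among the 8 that fell (log2 fold change -0.37, limma adjusted p = 0.0033). Mapk3, which encodes ERK1, fell to 153 and 150 TPM in the DOX libraries, against 307 and 300 TPM in the control libraries (95% interval of the log2 fold change from -1.13 to -0.87, limma adjusted p = 7.4e-07).

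The scaffold gene Ksr1 fell to 3.67 and 3.63 TPM in the DOX libraries, against 11.34 and 11.02 TPM in the control libraries (log2 fold change -1.39, limma adjusted p = 4.9e-06). The adaptor genes Gab1 and Shc1 also fell (log2 fold change -0.74 and -0.69), while Nras and Map2k1, which encodes MEK1, rose (0.39 and 0.35). Among 8 ERK effector kinases, 6 were tested, of which 2 rose (33.3%) and 3 fell (50%), beside 29% and 35.4% of all genes tested. The MAP kinase-interacting kinases, which phosphorylate the translation factor eIF4E, moved in opposite directions. Mknk1 rose to 127 and 142 TPM in the DOX libraries, against 44.5 and 43.0 TPM in the control libraries (95% interval of the log2 fold change from 1.44 to 1.76, limma adjusted p = 2.0e-07). Mknk2 fell to 35.3 and 34.0 TPM in the DOX libraries, against 82.2 and 79.5 TPM in the control libraries (log2 fold change -1.20, SE 0.07, limma adjusted p = 5.7e-07). The RSK gene Rps6ka2 rose to 2.23 and 2.85 TPM in the DOX libraries, against 0.988 and 0.674 TPM in the control libraries (log2 fold change 0.95). Its control mean was under 1 TPM, so it entered the test only through its DOX level. Rps6ka1, counted as lower, stood at 0.622 and 0.532 TPM in DOX libraries, against 1.71 and 1.44 TPM in control libraries. It entered only through its control level. Rps6ka4 stood at 2.46 and 2.92 TPM in DOX libraries and an uneven 7.49 and 3.32 TPM in control libraries. It passed as lower (limma adjusted p = 0.039). Rps6ka4 passed in only 7 of 13 alternatives. The call was lost without control replicate 1 (adjusted p = 0.27), at the edge of the threshold without DOX replicate 1, with no filter (0.17), quantile normalization (0.28) or a robust prior (0.10), and without a trend (0.081).

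Of 9 tested kinases of the p38 and JNK pathways, which were p38 and JNK genes and the MAP2K genes that activate them, 0 rose and 5 fell (55.6%), beside 29% and 35.4% of all genes tested (median log2 fold change -0.44). Map2k6, which activates p38, fell to 2.02 and 1.11 TPM in the DOX libraries, against 11.5 and 11.6 TPM in the control libraries (log2 fold change -2.31, SE 0.17, limma adjusted p = 3.5e-06). Mapk11, Map2k3 and Mapk9 fell by less (log2 fold change -0.64, -0.60 and -0.53).

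Other brakes on receptor and RAS signalling also moved down or did not pass. Of 18 tested, 0 rose, 9 fell (50%) and 9 did not pass (median log2 fold change -0.27), where 29% of all genes tested rose and 35.4% fell. Lrig1, a membrane protein that promotes turnover of ERBB receptors, fell to 123 and 107 TPM in the DOX libraries, against 338 and 323 TPM in the control libraries (log2 fold change -1.52, SE 0.07, limma adjusted p = 3.2e-07). Rasa4, which encodes a RAS GTPase-activating protein, fell (log2 fold change -1.32), as did Il17rd, which encodes the feedback inhibitor SEF (-0.92). Nf1, the partner of the SPRED proteins, stood at 31.1 and 35.4 TPM in the DOX libraries, against 31.5 and 32.8 TPM in the control libraries (log2 fold change 0.05, limma adjusted p = 0.65). Its 95% interval ran from -0.14 to 0.23.

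Of 12 genes for proteins that bind or modify Sprouty or SPRED, some of which also stand in the lists above, 4 rose (33.3%) and 1 fell (8.33%), beside 29% and 35.4% of all genes tested (median log2 fold change 0.02). Mknk1, whose product phosphorylates and stabilises SPRY2, had the largest change, as given above. Siah2, a ubiquitin ligase that targets Sprouty proteins, rose to 66.1 and 70.4 TPM in the DOX libraries, against 44.9 and 40.0 TPM in the control libraries (log2 fold change 0.67, limma adjusted p = 5.6e-05). Tesk1, a kinase that binds Sprouty proteins, and Cav1, which encodes caveolin, rose by less (log2 fold change 0.40 and 0.28). The call for Cav1 was lost without DOX replicate 1 (adjusted p = 0.12) or control replicate 1 (0.065), and with no filter (0.054).

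Transcripts often read as output of the ERK pathway mostly fell, with clear exceptions. Of 17 tested, 4 rose (23.5%) and 11 fell (64.7%), beside 29% and 35.4% of all genes tested (median log2 fold change -0.72). The list was drawn up with earlier results of these data known, so these shares are descriptions. Ier3, an immediate early gene, fell to 99.3 and 98.7 TPM in the DOX libraries, against 818 and 862 TPM in the control libraries (log2 fold change -3.07, SE 0.06, limma adjusted p = 2.8e-09). Phlda1, a growth factor-induced gene, fell to 18.0 and 14.1 TPM in the DOX libraries, against 100 and 106 TPM in the control libraries (log2 fold change -2.62, SE 0.10, limma adjusted p = 1.0e-07). The fitted changes of both lay below that of Dusp6.

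The ETS factor gene Etv1 fell to 6.99 and 5.48 TPM in the DOX libraries, against 38.6 and 47.4 TPM in the control libraries (log2 fold change -2.60, SE 0.13, limma adjusted p = 3.3e-07). Its relatives Etv4 and Etv5 fell by less (log2 fold change -1.42 and -0.72), and so did Egr1 and Ccnd1 (-1.11 and -0.63). Myc, in contrast, rose to 495 and 558 TPM in the DOX libraries, against 168 and 147 TPM in the control libraries (log2 fold change 1.74, SE 0.08, limma adjusted p = 2.8e-07). Fosl1, an AP-1 subunit that ERK stabilises, and Plaur, the urokinase receptor gene, also rose (log2 fold change 0.47 and 0.56). Etv4, Etv5, Egr1, Ccnd1, Fosl1, Plaur, Nras, Map2k1, Nf1, Dusp10 and Ggn were named after their values were seen. Epha4 was listed at 0 in all 4 libraries.

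**Figure D4:**
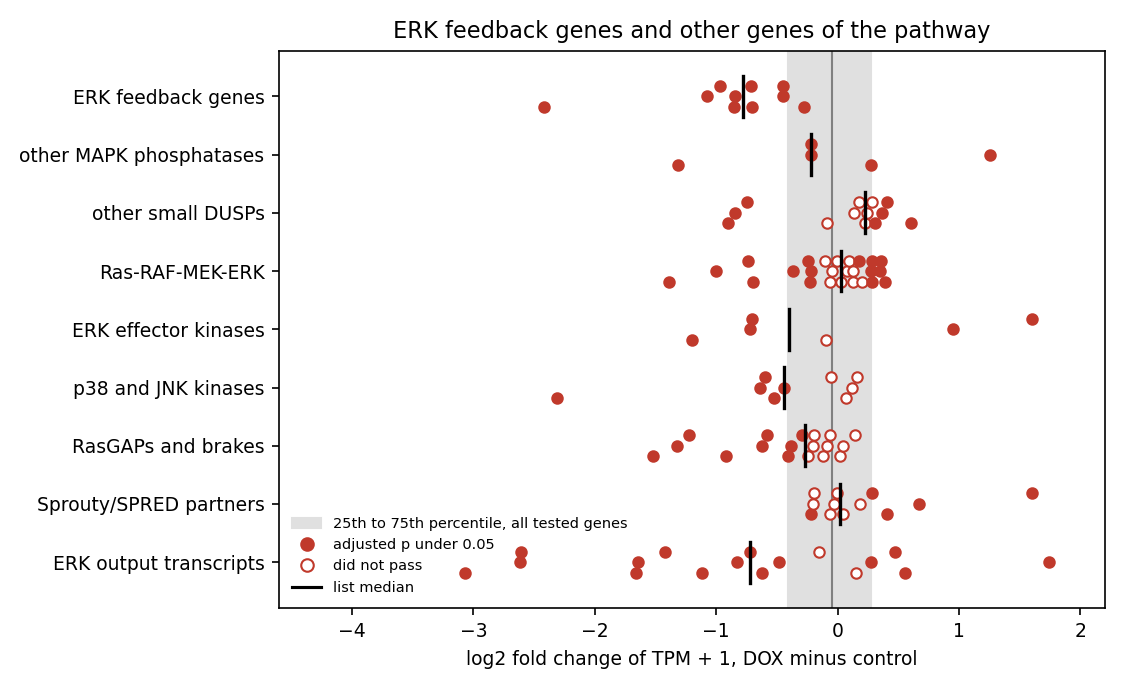
Log2 fold change of TPM + 1, DOX minus control, of each tested gene in 9 lists; filled points passed an adjusted p under 0.05, open points did not, black bars are list medians, and the grey band is the range from the 25th to the 75th percentile of all tested genes. The 10 feedback genes all lie left of 0 with a median of -0.78, while the cascade genes lie on both sides with a median of 0.02.

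Across 14 alternative ways of processing, each of the 10 genes kept a negative log2 fold change wherever it was tested. For most alternatives this was given in advance. Changes of filter, trend or prior and the replicate block leave the log2 fold change as reported. With both DOX libraries below both control libraries, another pseudocount or leaving out a library cannot reverse the sign. FPKM and median-of-ratios scaling rescale the libraries, but their factors were too alike between libraries to reverse these signs. The ratio of TPM to FPKM ran from 3.08 to 3.14, and the median-of-ratios factors from 0.976 to 1.03. Quantile normalization changes values by more, and it left the signs negative. Dusp4, Dusp6, Spry2, Spry4, Spred1, Spred2 and Spred3 passed under every alternative in which they were tested, which leaves out the filter at a mean of 5 TPM for Dusp4. Dusp5, Dusp7 and Spry1 did not, and passed in 10 of 14, 11 of 14 and 8 of 13 alternatives. The log2 fold change of Dusp6 stayed between -2.48 and -2.33, with adjusted p from 6.0e-14 to 2.7e-04.

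**Figure D5:**
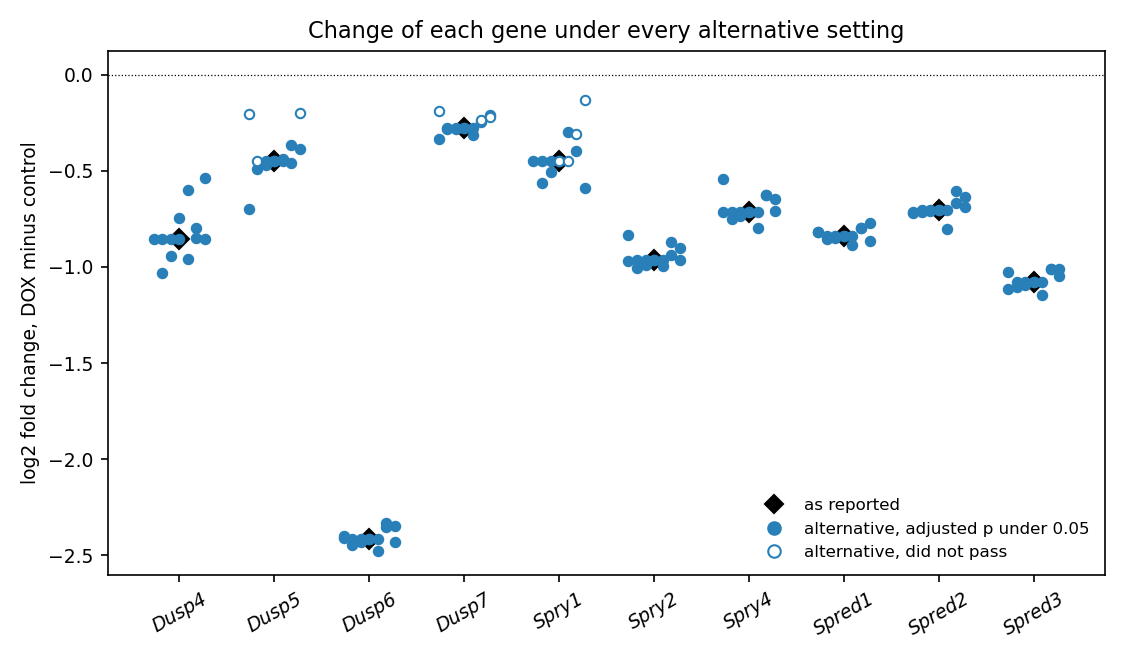
Log2 fold change of each of the 10 feedback genes, DOX minus control, as reported (black diamonds) and under up to 14 alternatives (blue circles), open where adjusted p was 0.05 or more. Open circles appear for Dusp5, Dusp7 and Spry1 only, and every point lies below 0.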

How the data were processed

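For the 4 libraries, TPM and FPKM values per gene symbol were deposited by the authors as separate tables, per the file headers. Per the labels' protocols, RNA was column-purified from TRIzol lysates and made into libraries with a Yeasen mRNA kit for Illumina sequencing. The submitters' processing notes name build mm39. For aligner, quantifier, annotation and strand setting, the entry is: not given in the sources used here. TPM were a constant multiple of FPKM in each library (3.08 to 3.14). Low FPKM showed no whole-read steps (the commonest ratio between replicate libraries held 1.42% to 1.67% of low genes), so depth was not recovered.

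Genes whose mean reached 1 TPM were fitted as log2(TPM + 1) with limma 3.58.1 in R 4.3.3 (lmFit, eBayes with trend, no covariate), 2 DOX against 2 control. Fold changes on this scale understate the change of low genes. The fit was tested on simulated data. Tables were made with Python 3.11.15 and pandas 2.3.3. The 10 genes, the 8 pathway lists, the markers and the tests were chosen with earlier results of these data known. Named genes are the 10, Cxcl14, up to 4 called genes of each list with the largest change, the 3 most like Dusp6 and Spry2, and those said to be named later. Copies and overlapping exons were sought in GENCODE M21 with blastn 2.17.0 (97% identity over 100 bases): Dusp5, Spred3 and Spry1 matched only the opposite-strand genes that overlap them, and the other 7 genes matched none. Some genes that this rule names are not reported here.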

Additional observations from a re-analysis of the deposited data

How the results depend on the processing

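Alternatives were pseudocounts of 0.1 and 0.5, a minimum mean of 5 TPM or none, FPKM in place of TPM, quantile normalization, median-of-ratios scaling, eBayes without trend or with a robust prior, a replicate block, and each library left out. The feedback genes called lower numbered 10 of 10 as reported, 7 with quantile normalization, 8 with no filter and 7 to 10 with 1 library left out. The log2 fold change of Dusp5 lost its call with no filter (-0.45), without a trend (-0.45) and with quantile normalization (-0.20), and ranged from -0.70 to -0.20 with 1 library left out. That of Dusp7 lost it with quantile normalization (-0.19) and ranged from -0.33 to -0.22. That of Spry1 lost it with no filter (-0.45) and quantile normalization (-0.13), and ranged from -0.59 to -0.31. The cause of these losses was not tested.

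Counts in small lists moved by over 1.5 times as follows. Other MAP kinase phosphatases called lower were 3 as reported, and 1 with no filter, median-of-ratios scaling or no trend; with 1 library left out, 1 to 2 were higher and 1 to 2 lower. Atypical and other dual-specificity phosphatases called higher were 8 with quantile normalization, against 4. ERK effector kinases called higher were 1 with the filter at 5 TPM and with FPKM, against 2, and those lower were 1 with that filter and with quantile normalization, against 3. For p38 and JNK kinases 1 was higher with FPKM, 2 with median-of-ratios scaling and 1 with quantile normalization, against 0. For the other brakes 1 was higher with median-of-ratios scaling, against 0, and 0 to 1 with 1 library left out. Sprouty and SPRED partners called lower were 2 with quantile normalization and without a trend, against 1, and 0 to 2 with 1 library left out. Cascade genes called with 1 library left out were 4 to 7 higher and 5 to 8 lower.

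Same-numbered libraries did not deviate together (correlation across genes -0.01), so the numbers were not taken as pairs. With the replicate block 10 feedback genes were lower, and 3387 genes were higher and 4114 lower, against 3295 and 4017 without it. Of 50 other genes named, Nf1 changed sign: its log2 fold change was -0.044 without DOX replicate 2, and up to 0.13 with another library left out. Where 1 library is left out, the spread of the lone library is taken from the remaining pair. Depth is unknown, and 2 libraries a group limit the precision.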
